A study of Mus musculus with 5 samples.

Results

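The matrix metalloproteinases (MMPs), the ADAMTS proteases and the tissue inhibitors of metalloproteinases (TIMPs) were followed in cultured neural stem cells (NSCs) and STO fibroblasts of the mouse. Members were taken by gene symbol, as every Mmp, Adamts and Timp gene with a number after the family name, whatever its level. There were 46 members among 24843 genes, made up of 23 MMPs, 19 ADAMTS genes and 4 TIMPs. The 2 NSC libraries (NSC1 and NSC2) came from primary cells of the embryonic mouse cortex that were grown as a monolayer on poly-l-ornithine and laminin in medium with B27, EGF, bFGF and heparin, and were used at passages 5 to 8. The 3 STO libraries (STO1 to STO3) came from a line of SIM mouse embryonic fibroblasts, resistant to thioguanine and ouabain, that was grown in DMEM with serum and used after more than 30 passages. The labels give the strain C57BL/6 for both cell types, and no treatment. Cell type, medium, coating and passage number differed together between the groups, so their effects cannot be told apart.

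MMPs are zinc proteases that are made as inactive precursors and that cut collagens, gelatins, laminins and other proteins of the extracellular matrix. Some are secreted, and the membrane-type MMPs (MT-MMPs) stay on the cell surface through a transmembrane segment or a GPI anchor. The ADAMTS proteases are secreted relatives with thrombospondin repeats, known for cutting proteoglycans, trimming procollagens and cleaving von Willebrand factor. TIMPs are small secreted proteins that bind the active site of MMPs and, for TIMP3 above all, of several ADAM and ADAMTS proteases. TIMP2 has a further role, since it holds pro-MMP2 to MMP14 on the cell surface, where pro-MMP2 is activated.

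Levels were given as FPKM, Cufflinks values scaled by transcript length and sequencing depth, so that levels of different genes could be compared per length, and transcripts of a gene were summed. The fragments implied by the deposited confidence intervals summed to between 15223341 and 22271895 per library, which is not a count of sequenced fragments. Of the NSC markers that the study itself used for these cells, Olig2 was at 499 and 493 FPKM in NSC1 and NSC2, Sox2 at 308 and 276, Nes at 176 and 169 and Pax6 at 5.04 and 5.22. In the STO libraries Nes was at most 0.0724 and the other 3 were listed at 0. Fibroblast markers (Col1a1, Col1a2, Col3a1, Pdgfrb and Lum) summed to between 929 and 1009 in the STO libraries and to at most 0.212 in the NSC libraries, and 4 of the 5 were above 1 in STO cells, Lum being at most 0.28. In the NSC libraries, 5 of 5 astrocyte markers (sum 316 to 319), 4 of 5 oligodendrocyte markers (239 to 244) and 4 of 5 neuronal markers (118 in both) were above 1, against sums of 25.0 to 26.7, 2.31 to 2.52 and 12.3 to 12.8 in the STO libraries. Rbfox3 and Mog, defining markers of mature neurons and oligodendrocytes, were at most 0.624 and 0.578 in the NSC libraries, and microglial and endothelial lists summed to at most 0.577 in every library. The NSC, fibroblast, astrocyte, oligodendrocyte and neuronal sums differed between the groups as the members below did, and their part in those differences was not tested. The microglial and endothelial sums overlapped between the groups, and the neuronal marker Tubb3 was not called (adjusted p = 0.476). In bulk RNA, fewer cells of a type and less RNA per cell cannot be told apart. Between replicates of a cell type, log2(FPKM + 1) correlated across 11700 genes with r of 0.994 to 0.995, and genes are not independent replicates. Nothing in the sources used here says whether the replicates were separate cultures, so the p-values measure the spread between these libraries, which may be technical.

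Of the 23 MMP genes, 10 lay side by side on chromosome 9 in 427 kb (mm9, chr9:7272514-7699585), in the order Mmp13, Mmp12, Mmp1b, Mmp3, Mmp1a, Mmp10, Mmp8, Mmp27, Mmp20 and Mmp7. Their upstream sequences are shown first, because the cluster holds the member with the largest difference and 8 of its genes share a motif that was not found in the other members searched. The sequences are from RefSeq (GRCm38.p6), which held 35 upstream stretches for 32 of the 46 members. Each of the 35 was found once in mm9 by exact match. The other 14 members all lie outside the cluster and were not searched, the MMPs among them being Mmp2, Mmp9, Mmp16, Mmp17 and Mmp19. The Adamts9 stretch belongs to a start that lies 42093 bases from the nearest Adamts9 start among the deposited transcripts. Each line gives the 100 bases before the annotated start, 5′ to 3′ on the gene's strand, with its place in mm9. Capitals mark the AP-1 motif TGANTCA (N being any base), the TATA box TATAAA and the GC box GGGCGG. Each was searched on both strands, and neighbouring GC boxes may overlap. The first 8 lines are the genes of the cluster with an AP-1 motif, and the last 4 are the main MT-MMP of each cell type and, of the TIMPs, the one with the highest level in STO cells and the one that was higher in NSCs.
Mmp3 (chr9:7445722-7445821, plus strand): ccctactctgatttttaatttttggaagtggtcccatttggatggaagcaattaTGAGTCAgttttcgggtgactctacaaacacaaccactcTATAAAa
Mmp10 (chr9:7502242-7502341, plus strand): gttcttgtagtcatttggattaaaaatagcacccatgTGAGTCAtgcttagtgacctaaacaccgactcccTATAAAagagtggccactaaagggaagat
Mmp1b (chr9:7388027-7388126, minus strand): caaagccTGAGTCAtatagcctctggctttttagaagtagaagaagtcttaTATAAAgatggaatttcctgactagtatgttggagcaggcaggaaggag
Mmp1a (chr9:7464041-7464140, plus strand): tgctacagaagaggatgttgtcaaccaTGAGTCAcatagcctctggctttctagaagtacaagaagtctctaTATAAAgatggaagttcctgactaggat
Mmp13 (chr9:7272414-7272513, plus strand): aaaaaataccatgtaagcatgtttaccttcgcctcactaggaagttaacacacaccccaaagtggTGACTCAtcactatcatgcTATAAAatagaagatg
Mmp12 (chr9:7347274-7347373, plus strand): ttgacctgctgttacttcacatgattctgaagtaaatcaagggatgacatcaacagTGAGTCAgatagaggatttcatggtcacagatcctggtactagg
Mmp20 (chr9:7628131-7628230, plus strand): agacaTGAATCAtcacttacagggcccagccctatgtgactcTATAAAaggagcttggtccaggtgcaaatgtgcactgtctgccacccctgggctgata
Mmp7 (chr9:7691990-7692089, plus strand): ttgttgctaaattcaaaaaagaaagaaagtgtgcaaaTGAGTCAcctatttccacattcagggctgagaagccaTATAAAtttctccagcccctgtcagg
Mmp14 (chr14:55050335-55050434, plus strand): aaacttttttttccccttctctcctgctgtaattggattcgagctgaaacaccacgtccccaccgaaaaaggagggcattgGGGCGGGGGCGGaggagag
Mmp15 (chr8:97876096-97876195, plus strand): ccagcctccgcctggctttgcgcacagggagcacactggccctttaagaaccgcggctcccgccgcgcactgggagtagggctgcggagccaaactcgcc
Timp2 (chr11:118216726-118216825, minus strand): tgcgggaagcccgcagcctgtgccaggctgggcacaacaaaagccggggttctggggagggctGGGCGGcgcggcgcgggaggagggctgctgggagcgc
Timp4 (chr6:115202224-115202323, minus strand): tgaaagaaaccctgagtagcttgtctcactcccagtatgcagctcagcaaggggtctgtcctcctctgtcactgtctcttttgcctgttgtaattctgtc

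In the 250 bases upstream of the start, the AP-1 motif was present in 8 of the 10 cluster genes and in 0 of the 22 other members with a sequence, against 6.75% of all 32851 promoters. The TATA box was present in 7 of the 10 cluster genes and in 2 of the other 22, against 12.4% of all promoters. The GC box showed the opposite picture. It was present in 0 of the 10 cluster genes and 16 of the other 22, against 32.7% of all promoters. The member shares are per gene and the background is per promoter. The cluster stretches were 37.2 to 53.2% G or C and those of the other members 53.6 to 79.2%. The median over all promoters was 52.4%. The part of base composition in these counts was not tested, and neighbouring genes of 1 family are not independent observations. Counted per promoter, the cluster had the AP-1 motif in 8 of 12 and the TATA box in 7 of 12. In Mmp3 the AP-1 motif began 46 bases before the annotated start, in Mmp10 and Mmp7 63 bases, in Mmp13 35 bases and in Mmp12 44 bases. The Mmp12 stretch shown is that of the start at position 7347374, which is the start of the only Mmp12 transcript listed above 0. Among the 8 cluster genes above 0 in STO cells, the 6 with the AP-1 motif had mean levels there from 0.276 to 228 FPKM. After Mmp3, the highest of these was Mmp10 at 3.95. Mmp8 and Mmp27, which lacked the motif, were at 0.0536 and 0.0625, from at most 5 implied fragments per library. Whether the motif bears on the levels was not tested. Mmp20 and Mmp7 carried the TATA box and a match to TGANTCA and were listed at 0 in all 5 libraries. The Mmp20 match, TGAATCA, was found only because any middle base was allowed. The usual AP-1 site has G or C there, as the matches of the other cluster genes had. These matches are descriptions of letters in a window, and no binding was measured here.

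The cluster was almost silent in NSCs and was carried by 1 gene in STO cells. Its summed level was 0.0119 and 0 FPKM in NSC1 and NSC2, and 240, 226 and 242 in STO1, STO2 and STO3. In NSCs, 9 of the 10 genes were listed at 0 in both libraries, and the exception was Mmp13, with 1 implied fragment in NSC1. In STO cells, 8 of the 10 genes were above 0 in all 3 libraries, and Mmp3 made up 96.8% of the summed level.

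**Figure D1:**
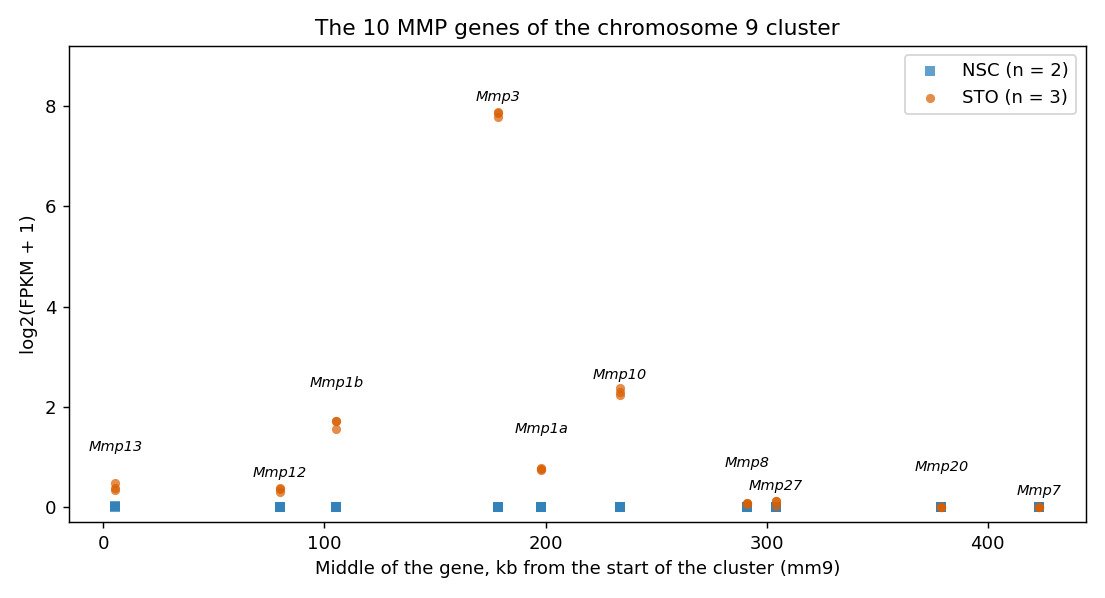
Levels of the 10 MMP genes of the chromosome 9 cluster, as log2(FPKM + 1) against the distance of the middle of each gene from the start of the cluster in kb (mm9). Each point is 1 library (blue squares, 2 NSC libraries; orange circles, 3 STO libraries). Mmp3 stands alone near the top in STO cells, Mmp10 and Mmp1b follow, and the NSC libraries lie at or next to 0 throughout.

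Across all genes, NSCs and STO cells differed widely. With limma on log2(FPKM + 1) and an adjusted p under 0.05, 41.9% of the 12277 genes tested were higher and 43.7% were lower in STO cells. A gene was tested if the mean FPKM of either cell type reached 1, which 28 of the 46 members met (13 MMPs, 11 ADAMTS genes and 4 TIMPs). Of these 28, 17 were higher in STO cells, 10 were lower and 1 was not called, and with most genes called in 1 direction or the other, these counts say little about the families. A difference of at least 1 on the log2 scale, together with the adjusted p, was met by 14 members that were higher, against 17.1% of all genes tested, and by 7 that were lower, against 21.3%. Regardless of p, 75% of the 28 members and 38.7% of all genes tested had an absolute difference of at least 1. The median absolute difference was 1.74 over the members and 0.74 over all genes, and the median signed difference was 1.12 and -0.02. These medians are descriptions, since a gene could pass the filter through its high cell type alone.

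**Figure D2:**
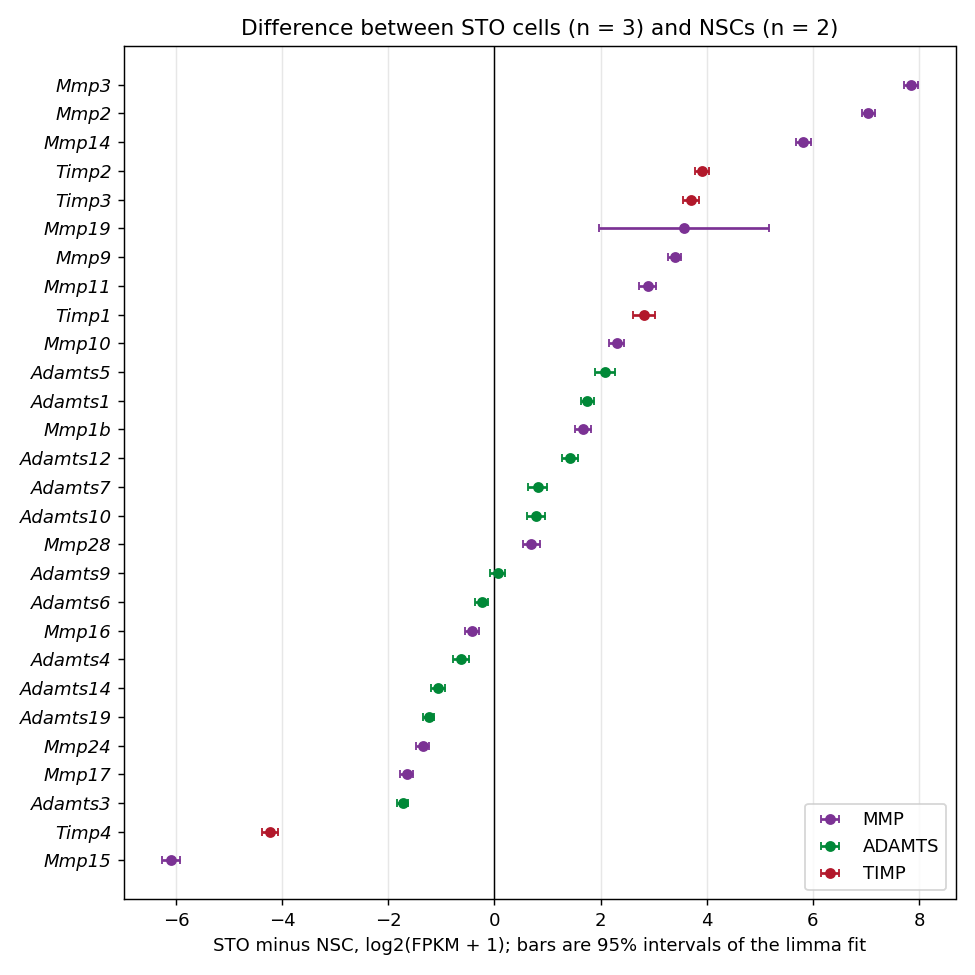
Difference of STO cells (n = 3) minus NSCs (n = 2) in log2(FPKM + 1) for the 28 members tested, with 95% intervals of the limma fit, coloured by family. Differences run from -6.09 in Mmp15 to 7.84 in Mmp3, and the wide interval belongs to Mmp19, whose 2 NSC libraries disagreed.

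Collagenases are named for cutting fibrillar collagen across the triple helix, and whether each gene here encodes that activity was not tested. All 4 genes grouped under this name were at or next to 0 in NSCs and low in STO cells. Mmp1b was listed at 0 in both NSC libraries and at 2.31, 1.96 and 2.30 FPKM in the STO libraries, with a log2 difference of 1.67 ± 0.064 (SE, adjusted p = 9.32e-07). The related gene Mmp1a was at 0 and 0 in NSCs and at 0.723, 0.707 and 0.661 in STO cells, under the level needed for the test. Whether reads of the 2 related genes were mixed was not tested. Mmp13, collagenase 3, was at 0.298, 0.390 and 0.272 in STO cells, from 18 to 27 implied fragments. Mmp8, the neutrophil collagenase, was at 0.0542, 0.0473 and 0.0593 from 3 to 5 implied fragments, a level at which little can be said. The 4 genes together reached only 3.26 ± 0.14 FPKM (SD, n = 3) in STO cells, and Mmp1b was 67.1% of that.

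Both gelatinases, which digest denatured collagen and the collagen of basement membranes, were higher in STO cells. Mmp2 (chr8:95351196-95377320) was at 0.228 and 0.236 FPKM in NSC1 and NSC2, from 22 and 25 implied fragments, and at 162, 157 and 165 in the STO libraries. The groups were far apart, with a ratio of the means of 695 and a log2(FPKM + 1) difference of 7.04 ± 0.05 (SE, adjusted p = 3.13e-09). Mmp9 (chr2:164773719-164781350) was at 0.0601 and 0.0274 in NSCs and at 9.94, 10.2 and 9.85 in STO cells, a difference of 3.40 ± 0.05 (adjusted p = 1.34e-08). Its ratio of the means, 229, rests on 6 and 3 implied fragments in the NSC libraries and is therefore loose. Within STO cells, Mmp2 made up 94.2% of the summed gelatinase level.

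Of the stromelysins, Mmp3 and Mmp10 encode proteases that have a broad range of matrix substrates and can activate other pro-MMPs. The largest difference of any member was that of Mmp3. Mmp3 (chr9:7445822-7455974) was listed at 0 in both NSC libraries and at 232, 218 and 235 FPKM in the STO libraries, at or above 99.0% of all genes there. Its log2 difference was 7.84 ± 0.054 (SE, adjusted p = 3.13e-09), and no ratio is given against a level of 0. Mmp10, the second stromelysin, was also at 0 in both NSC libraries and reached 4.22, 3.93 and 3.69 in STO cells (difference 2.30 ± 0.059, adjusted p = 1.42e-07). Mmp3 and Mmp10 are neighbours in the cluster, with Mmp1a between them, and their levels in STO cells differed by far more than the spread between libraries. Mmp11 (stromelysin 3, chr10:75385967-75395247) lies outside the cluster. It was at 0.0524 and 0.0478 in NSCs, from 2.11 implied fragments in each, and at 7.30, 6.39 and 6.66 in STO cells (difference 2.89 ± 0.064, adjusted p = 7.34e-08).

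Of the matrilysin Mmp7 and the macrophage elastase Mmp12, Mmp7 was listed at 0 in all 5 libraries. Mmp12 was at 0 in NSCs and at 0.295, 0.300 and 0.234 FPKM in STO cells, from 22.7 to 28 implied fragments.

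The transmembrane MT-MMPs were led by a different gene in each cell type. Mmp15 (MT2-MMP, chr8:97876196-97898193) was at 222 and 237 FPKM in NSC1 and NSC2 and at 2.60, 2.39 and 2.17 in the STO libraries. It was the highest member in NSCs, at or above 98.9% of all genes, and was 96.0 times higher there than in STO cells (log2 difference -6.09 ± 0.071, adjusted p = 6.76e-09). Mmp14 (MT1-MMP, chr14:55050435-55061293), the main activator of pro-MMP2, was at 2.33 and 2.57 in NSCs and at 197, 196 and 189 in STO cells. It was 79.1 times higher in STO cells (difference 5.82 ± 0.055, adjusted p = 4.75e-09). The groups did not overlap for either gene, and the level of Mmp15 in NSCs was close to that of Mmp14 in STO cells. The sum of the 4 transmembrane genes differed little, at 233 and 248 in NSCs and 204, 204 and 196 in STO cells, and Mmp15 made up 95.3% of it in NSCs and Mmp14 96.2% in STO cells.

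Of the other MT-MMPs, Mmp16, Mmp24 and Mmp17 were lower in STO cells, and Mmp25 was under the level needed for the test. Mmp16 (MT3-MMP) was at 7.26 and 7.33 FPKM in NSCs and at 5.17, 5.38 and 5.03 in STO cells, a small difference of -0.42 ± 0.053 (SE, adjusted p = 0.000356). Mmp24 (MT5-MMP), known for its expression in the nervous system, was at 1.44 and 1.67 in NSCs and listed at 0 in all STO libraries (difference -1.35 ± 0.051, adjusted p = 9.02e-07). The last 635 bases of its locus are shared with a non-coding RefSeq transcript that was at 21.2 and 17.7 in NSCs and at 32.1 to 35.5 in STO cells, so the assignment of reads at the end of Mmp24 is uncertain. Mmp17 (MT4-MMP), which is held by a GPI anchor, was at 7.66 and 7.56 in NSCs and at 1.69, 1.78 and 1.73 in STO cells (difference -1.65 ± 0.049, adjusted p = 2.71e-07), 4.38 times higher in NSCs. Mmp25, the other GPI-anchored member, was at 0.00895 and 0.0163 in NSCs, from at most 1.33 implied fragments, and listed at 0 in STO cells.

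**Figure D3:**
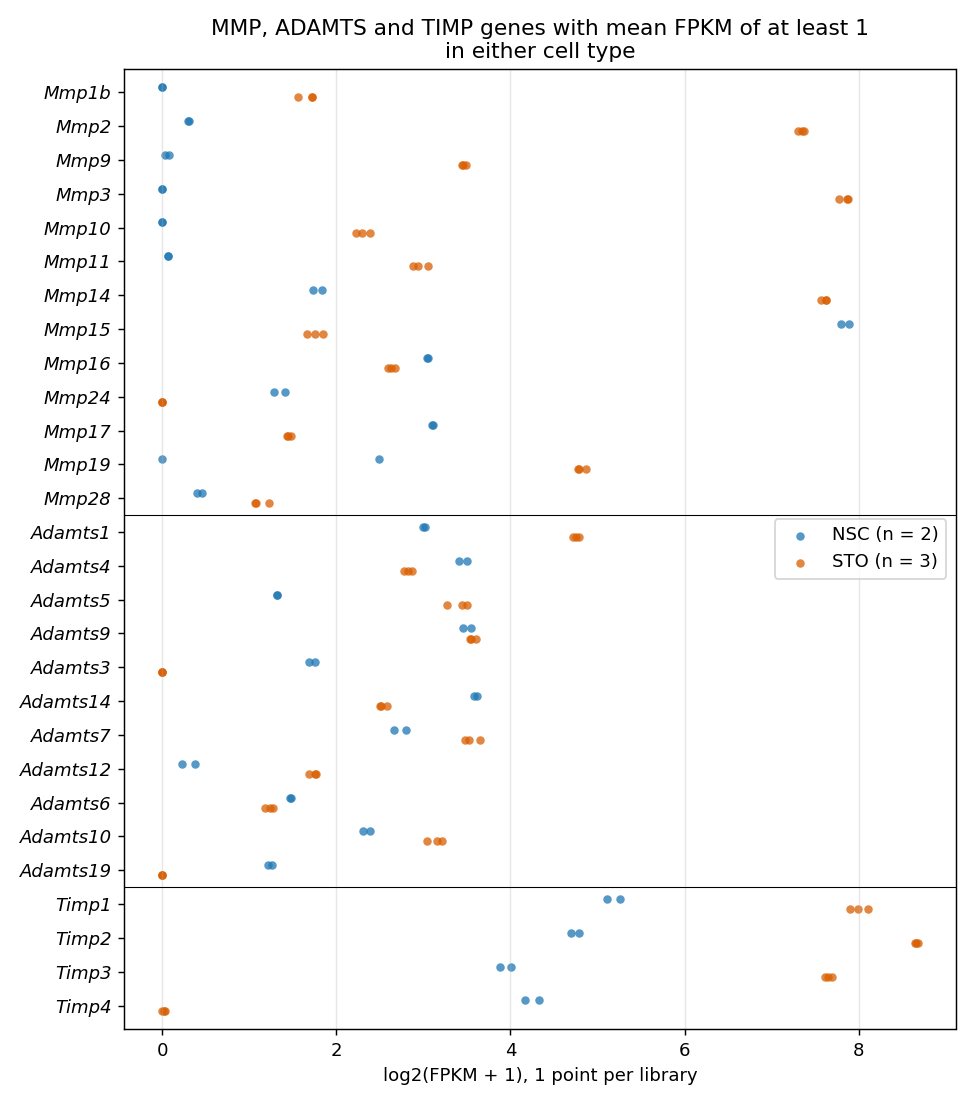
Level of each of the 28 members tested, as log2(FPKM + 1), with 1 point per library (blue, NSC, n = 2; orange, STO, n = 3) and lines between MMPs, ADAMTS genes and TIMPs. Mmp15 and Timp4 lie higher in NSCs than in STO cells, while Mmp3, Mmp2, Mmp14, Timp1, Timp2 and Timp3 lie higher in STO cells than in NSCs.

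Among the remaining MMPs, Mmp19 and Mmp28 were higher in STO cells. Mmp19 (chr10:128227966-128237883) was at 4.62 FPKM in NSC1, at 0 in NSC2 and at 28.3, 26.6 and 26.3 in STO1 to STO3. The 2 NSC libraries differed more than for any other member, and an exact 0 beside 373 implied fragments in NSC1 can be a failed estimate. The log2 difference was 3.57 ± 0.66 (SE, adjusted p = 0.00225), and it was 4.81 without NSC1 and 2.32 without NSC2, with an adjusted p of 3.8e-05 and 0.000187. The end of Mmp19 overlaps the gene Tmem198b by 792 bases, which was at 28.5 and 34.5 in NSCs and at 8.76 to 9.33 in STO cells, and its part in the Mmp19 value was not tested. Mmp28 (epilysin) was at 0.370 and 0.321 in NSCs and at 1.35, 1.09 and 1.10 in STO cells (difference 0.70 ± 0.065, adjusted p = 7.92e-05, and 1.12 under quantile normalization). Mmp23 was between 0.0298 and 0.182 in the 5 libraries with overlapping groups, Mmp27 was at 0 in NSCs and at most 0.0907 in STO cells, and Mmp21 was at most 0.047 in any library. Mmp20, the enamel protease, was at 0 in all 5.

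Of the 11 ADAMTS genes tested, 5 were higher, 5 lower (Adamts6 turning higher under quantile normalization) and 1 was not called. Of the 13 MMPs tested, 9 were higher and 4 lower, and whether the families differ was not tested. Of the proteoglycan-cleaving genes, Adamts1 and Adamts5 were higher in STO cells and Adamts4 was lower. Adamts1, which cuts aggrecan and versican, was at 7.10 and 7.0 FPKM in NSCs and at 26.7, 26.1 and 25.4 in STO cells, 3.69 times higher (log2 difference 1.75 ± 0.05 (SE), adjusted p = 2.47e-07). Adamts5, an aggrecanase, was at 1.5 in both NSC libraries and at 9.87, 10.3 and 8.68 in STO cells, 6.39 times higher (difference 2.08 ± 0.078, adjusted p = 8.53e-07). The 2 genes are neighbours on chromosome 16 (chr16:85794073-85901370), and both moved the same way. Adamts4, the other main aggrecanase, was at 10.3 and 9.64 in NSCs and at 6.34, 6.09 and 5.85 in STO cells (difference -0.63 ± 0.059, adjusted p = 8.3e-05). Adamts9 was at 10.7 and 9.93 in NSCs and at 11.2, 10.7 and 10.6 in STO cells, so its groups overlapped. Its difference was 0.06, with a 95% interval from -0.08 to 0.21 and an adjusted p of 0.334, so a difference of more than 0.21 lies outside the interval.

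The procollagen N-proteinases, which remove the amino propeptide of fibrillar procollagens, were lower in STO cells where they could be tested. Adamts14 was at 11.3 and 10.9 FPKM in NSCs and at 4.97, 4.68 and 4.70 in STO cells (log2 difference -1.07 ± 0.054 (SE), adjusted p = 3.73e-06), 2.32 times higher in NSCs. Adamts3 was at 2.38 and 2.23 in NSCs and listed at 0 in the 3 STO libraries (difference -1.72 ± 0.043, adjusted p = 1.21e-07). Adamts2, the first known enzyme of this group, was at 0.0394 and 0.040 in NSCs and at most 0.00801 in STO cells. The 3 genes summed to 13.7 and 13.2 in NSCs and to 4.97, 4.68 and 4.71 in STO cells. The fibrillar collagen genes Col1a1, Col1a2 and Col3a1, whose products they act on, lay the other way, between 222 and 374 in the STO libraries and at most 0.196 in NSCs.

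Adamts7 and Adamts12, which cleave cartilage oligomeric matrix protein, were both higher in STO cells. Adamts7 was at 5.36 and 6.00 FPKM in NSCs and at 11.5, 10.5 and 10.2 in STO cells (log2 difference 0.81 ± 0.075 (SE), adjusted p = 7.44e-05). Adamts12 was at 0.299 and 0.175 in NSCs, from 79.1 and 51.9 implied fragments, and at 2.39, 2.22 and 2.37 in STO cells (difference 1.43 ± 0.06, adjusted p = 1.55e-06), with a ratio of the means of 9.82.

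Of the other ADAMTS genes, Adamts10, a fibrillin-binding member, was at 3.95 and 4.24 FPKM in NSCs and at 8.27, 7.24 and 7.91 in STO cells (log2 difference 0.79 ± 0.07 (SE), adjusted p = 5.98e-05). It is annotated with 13 transcripts, and when each was taken singly the most expressed one differed by 0.30 with an adjusted p of 0.173. Adamts6 was at 1.76 and 1.78 in NSCs and at 1.36, 1.42 and 1.27 in STO cells, a difference of -0.24 ± 0.049 (adjusted p = 0.0039) that turned to 0.20 (adjusted p = 0.0157) under quantile normalization, so its direction depends on the scaling. Adamts19 was at 1.33 and 1.40 in NSCs and at 0 in the STO libraries (difference -1.24 ± 0.039, adjusted p = 3.82e-07, and -0.69 under quantile normalization).

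Below the level needed for the test, several ADAMTS genes were seen in NSCs and were close to 0 in STO cells. Adamts8 was at 0.999 and 0.906 FPKM in NSCs, from 134 and 133 implied fragments, and at most 0.0099 in STO cells. Adamts20 was at 0.420 and 0.616 in NSCs and at most 0.0148 in STO cells. Adamts17 was at 0.374 and 0.525 against at most 0.00642, and Adamts16 at 0.275 and 0.251 against at most 0.0351. Adamts15 summed to 0.290 and 0.318 in NSCs and to 0.398, 0.434 and 0.433 in STO cells, but the transcripts differed. The gene is on the minus strand, and its 2 transcripts share their 3′ end and differ in their annotated start. The one that starts at position 30730037 of chromosome 9 was listed above 0 in the NSC libraries only. The one that starts at 30728535 was listed above 0 in the STO libraries only, from 42.1 to 69.2 implied fragments per library. Such zeros can come from how Cufflinks divides reads between overlapping transcripts. In Adamts10, for example, 1 transcript was at 1.47 in NSC1 and at 0 in NSC2. Whether the start of Adamts15 differed was not tested. Adamts15 and Adamts8 are neighbours, within 64.7 kb. The von Willebrand factor protease Adamts13 and Adamts18 were at 0 in both NSC libraries and at most 0.0112 in STO cells.

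In all, 18 of the 46 members did not reach a mean of 1 FPKM in either cell type. Over all genes, 12277 of 24843 did reach it. The highest single value among the 18 members was the 0.999 of Adamts8. Counting every member, 11 of 46 were listed at 0 in both NSC libraries, against 35.7% of all genes. In all 3 STO libraries 6 of 46 were at 0, against 36.1% of all genes, and 2 were at 0 in all 5 libraries.

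The inhibitors divided as 3 against 1. Timp2 (chr11:118162375-118216725) was at 25.0 and 26.7 FPKM in NSCs and at 399, 409 and 403 in STO cells, the highest level of any member and at or above 99.5% of all genes. It was 15.6 times higher in STO cells (log2 difference 3.91 ± 0.055 (SE), adjusted p = 1.2e-08). Timp3 (chr10:85763157-85812250), which binds to the matrix, was at 13.8 and 15.1 in NSCs and at 195, 206 and 199 in STO cells, 13.9 times higher (difference 3.71 ± 0.061, adjusted p = 2.04e-08). Timp1 (chrX:20447292-20451863) was at 37.2 and 33.5 in NSCs and at 254, 237 and 274 in STO cells, 7.22 times higher (difference 2.82 ± 0.083, adjusted p = 2.7e-07). Both transcripts of Timp1 listed above 0 were higher in STO cells, at 11.9 and 11.6 against 108 to 126 and at 25.3 and 21.9 against 130 to 148. Timp4 (chr6:115194464-115202223) went the other way, at 17.0 and 19.1 in NSCs and at 0, 0.0132 and 0.0199 in STO cells (difference -4.23 ± 0.061, adjusted p = 1.29e-08). Mmp2, Mmp14 and Timp2, the 3 parts of the complex that activates pro-MMP2, were thus all among the 6 highest members in STO cells, at 161 ± 3.7, 194 ± 4.5 and 403 ± 4.8 (SD, n = 3), against 0.232 ± 0.006, 2.45 ± 0.16 and 25.8 ± 1.2 (SD, n = 2) in NSCs.

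Each of 3 TIMP genes lies inside a synapsin gene on the opposite strand, Timp1 in Syn1, Timp3 in Syn3 and Timp4 in Syn2. Synapsins coat synaptic vesicles in neurons. Syn1 was at 18.1 and 21.4 FPKM in NSCs, Syn2 at 13.5 and 14.9 and Syn3 at 1.42 and 1.67, and all 3 were listed at 0 in every STO library. The hosts therefore all lay higher in NSCs, while of the TIMPs within them only Timp4 did. The libraries were made with a stranded kit, and whether strand was used in counting is not given in the sources used here, so reads of Timp1, Timp3 and Timp4 and of their hosts may have been mixed. Timp2 overlaps Cep295nl, which was at most 2.04 in any library.

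**Figure D4:**
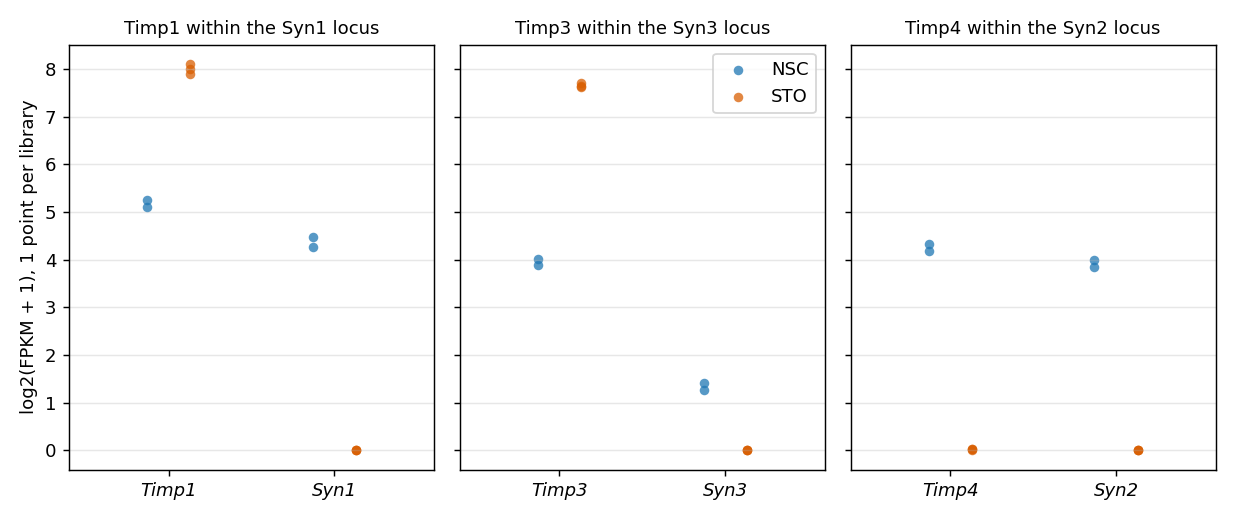
Levels of Timp1, Timp3 and Timp4 and of the synapsin gene around each, as log2(FPKM + 1), with 1 point per library (blue, 2 NSC libraries; orange, 3 STO libraries). The synapsin genes are at 0 in STO cells in all 3 panels, whereas Timp1 and Timp3 are higher in STO cells and Timp4 is higher in NSCs.

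Summed by family, the balance of inhibitors and proteases differed. The 23 MMPs summed to 246 and 257 FPKM in NSCs and to 655, 633 and 648 in STO cells, 2.57 times higher by the means. The 19 ADAMTS genes summed to 58.4 and 57.5 in NSCs and to 83.1, 79.7 and 77.5 in STO cells, 1.38 times higher. The 4 TIMPs summed to 93.0 and 94.3 in NSCs and to 848, 852 and 876 in STO cells, 9.17 times higher. The ratio of the TIMP sum to the MMP sum was 0.378 and 0.367 in NSCs and 1.30, 1.35 and 1.35 in STO cells, so the MMP sum was the larger in both NSC libraries and the TIMP sum in the 3 STO libraries. These are sums of RNA levels and say nothing about active protein. In NSCs 1 gene, Mmp15, made up 91.2% of the MMP sum, whereas the largest share in STO cells was the 35.4% of Mmp3. The ADAMTS sum was spread more evenly, the largest shares being 19.2% for Adamts14 in NSCs and 32.5% for Adamts1 in STO cells.

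**Figure D5:**
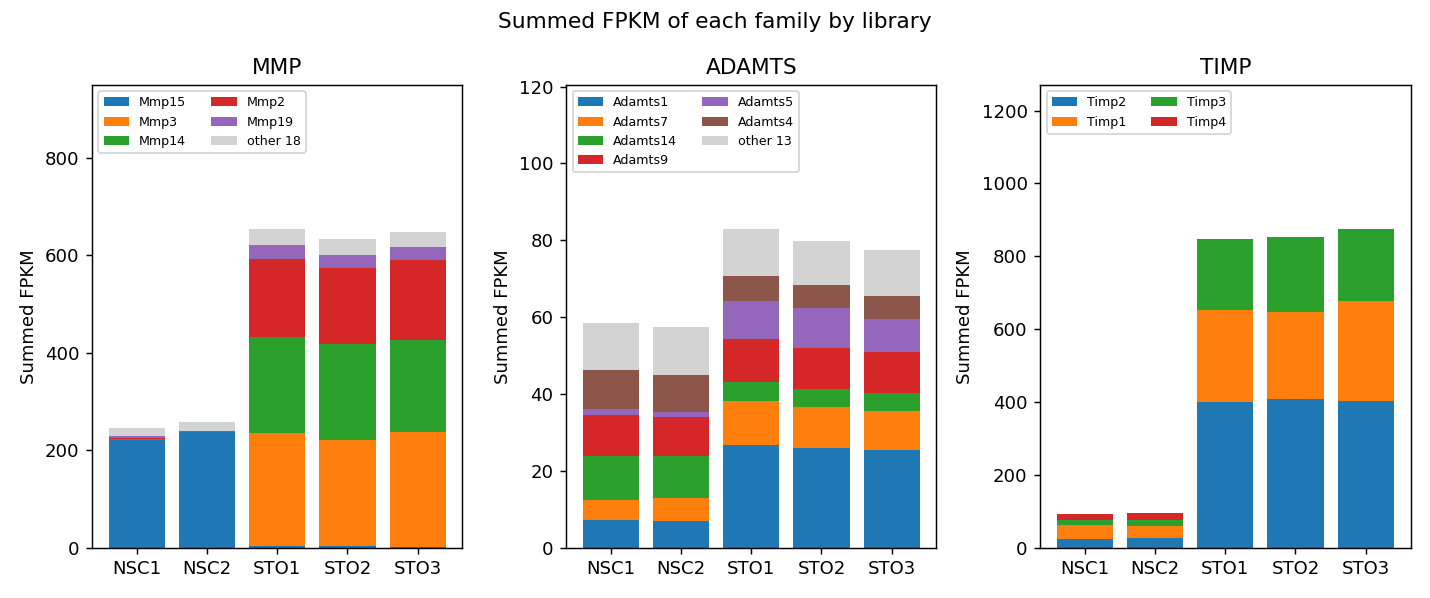
Summed FPKM of the MMP, ADAMTS and TIMP families in each of the 2 NSC and 3 STO libraries, with stacked colours for the leading genes and grey for the rest. The panels have different vertical scales, each starting at 0. Mmp15 fills most of the MMP bar in NSCs, and Mmp3, Mmp14 and Mmp2 fill it in STO cells, where the TIMP bars reach 848 to 876 FPKM.

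A list of 28 other genes that activate, bind, inhibit or resemble these proteases was followed in the same fit, and 20 of them were tested. Of these, 12 were higher in STO cells, 6 were lower and 2 were not called, against the background shares of 41.9% and 43.7%. Reck, a membrane-anchored inhibitor of MMPs, was at 0.911 and 0.799 FPKM in NSCs and at 5.68, 5.27 and 5.28 in STO cells (log2 difference 1.79 ± 0.058 (SE), adjusted p = 4.48e-07). Furin, which removes the propeptide of MT-MMPs and ADAMTS proteases, was at 11.2 and 9.48 in NSCs and at 40.3, 39.4 and 34.8 in STO cells (difference 1.79 ± 0.093, adjusted p = 4.2e-06). Pcsk6, a protease of the same type, was at 2.71 and 2.79 in NSCs and listed at 0 in STO cells (difference -1.91 ± 0.04, adjusted p = 5.7e-08).

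The plasminogen activators, which act upstream of several pro-MMPs, lay in opposite directions. Plau, the urokinase gene, was at 0.936 and 0.979 FPKM in NSCs and at 23.4, 22.6 and 23.4 in STO cells (log2 difference 3.62 ± 0.051 (SE), adjusted p = 1.21e-08). Plat, the tissue-type activator, was at 180 and 188 in NSCs and at 16.1, 16.8 and 16.7 in STO cells (difference -3.40 ± 0.051, adjusted p = 1.44e-08). Plg, which encodes plasminogen itself, was at most 0.0316 in any library.

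Among cell surface partners, Cd44, a docking site for several MMPs, Cd63, a receptor of TIMP1, and Lrp1, which clears MMPs and TIMPs from outside the cell, were higher in STO cells by 1.82 ± 0.069, 1.34 ± 0.077 and 1.04 ± 0.085 on the log2 scale. Bsg, an inducer of MMPs, was at 331 and 303 in NSCs and at 376, 341 and 369 in STO cells (difference 0.19, adjusted p = 0.0538). It passed the threshold without STO2 (adjusted p = 0.0314), without the trend (adjusted p = 0.0399) and under quantile normalization (adjusted p = 0.00141). The related ADAM genes were mixed. Adam12 was at 25.5 and 28 in NSCs and between 0.842 and 0.973 in STO cells (difference -3.87 ± 0.065, adjusted p = 2.14e-08), whereas Adam17, the sheddase of TNF and a target of TIMP3, was at 12.6 and 12 against 26.3, 25.5 and 27.4 (difference 1.04 ± 0.056, adjusted p = 4.99e-06). Adam10 was at 56.1 and 50.6 against 47.1, 48.4 and 46.7, and its difference of -0.16 (adjusted p = 0.0432) was not kept when NSC1 or any STO library was left out (adjusted p from 0.0658 to 0.11), under quantile normalization (adjusted p = 0.121) or with transcripts taken singly (adjusted p = 0.0527). Adam9, Adam15 and Adam19 differed by 0.27, 0.24 and -0.53. With transcripts taken singly, the most expressed ones of Adam9 and Adam15 differed by 2.66 and 4.91. These larger values depend on how Cufflinks divided reads between transcripts of the same gene, which was not tested. Pcsk7 differed by -0.13 (adjusted p = 0.137), and by -0.24 without NSC2 (adjusted p = 0.0135). Of the ADAMTS-like genes, which lack the protease domain, Adamtsl5 was at 0.0893 and 0.196 in NSCs and at 12, 10.3 and 11.4 in STO cells, and Adamtsl4 and Adamtsl3 were higher in STO cells by 2.01 ± 0.059 and 0.60 ± 0.066. Papln, papilin, which inhibits an ADAMTS protease, was at 1.46 and 1.11 in NSCs and at most 0.0206 in STO cells (difference -1.18 ± 0.07, adjusted p = 8e-06, and -0.53 with an adjusted p of 0.0147 under quantile normalization).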

How the data were processed

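Total RNA of 2 NSC and 3 STO samples was made into stranded mRNA libraries. The authors aligned trimmed reads to mm9 with HISAT2 (version 4.8.2 as the submitters' processing notes give it) and deposited FPKM values from Cufflinks 2.2.1 on RefSeq transcripts, with confidence intervals and a status. Depth and transcript length were divided out by the authors, and no read counts were used.

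Of 40201 transcripts, 39951 (99.4%) were given a symbol through RefSeq identifiers in a table for GRCm38.p6, used for names only, and FPKM was summed per symbol. Coordinates are those of mm9. The status of all 86 member transcripts was OK. Implied fragments were (2 × FPKM / (upper bound − FPKM)) squared, which treats the whole interval as counting error. Where reads are divided between transcripts, the interval can be wider and the implied number too low. Groups came from the labels. The cell types were compared over the 12277 genes whose mean FPKM reached 1 in either of them, on log2(FPKM + 1), by limma 3.58.1 (trended eBayes, R 4.3.3) and with Benjamini-Hochberg adjustment over all of them, after the script was tested on simulated data. Differences on this scale understate the change of low genes. Sums and other tables used Python 3.11.15 and pandas 2.3.3.

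The members and lists were chosen with earlier results of these data known. Every member with a mean of at least 1 FPKM in either cell type was to be named, and others where listed above 0 in all replicates of a cell type; the regulator genes named were chosen after their values were seen. Alternatives changed the pseudocount, filter, normalization, trend, replicate block, call rule, transcripts and samples. Motifs were searched in 250 bases upstream. Hi-C, ChIP-seq and other cell types were not analysed here. A marker gene and the sum that includes it are not reported here.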

Additional observations from a re-analysis of the deposited data

How the results depend on the processing

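With 2 NSC and 3 STO libraries, and exact zeros in files without counts, small differences and low genes are the least certain. The counts of 17 members higher and 10 lower in STO cells were unchanged with a pseudocount of 0.1, median scaling, no trend, transcripts with status OK, and each library left out (17 to 17 and 10 to 10). Where 1 NSC library was left out, the other was assumed to vary like the STO libraries. No filter gave 22 and 15, quantile normalization 18 and 9, and transcripts taken singly 19 and 9 of 34 transcripts. A minimum of 5 FPKM gave 13 and 6, with 20 members tested, and a log2 difference of at least 1 gave 14 and 7, with 2099 and 2613 over all genes against 5147 and 5371. The counts over all genes ranged from 4703 to 5060 and from 4899 to 5248 with 1 library left out. The regulators were 12 higher and 6 lower, 10 lower with no filter, and 12 to 13 and 5 to 7 with 1 library left out. Among the members' single differences, 403 kept their direction and call over the alternatives, 8 kept the direction without the call, 6 of them through the rule of at least 1, and 1 reversed (Adamts6, 0.20 under quantile normalization). The 2 others were Adamts10 (0.30) and Adamts6 (-0.16) with transcripts taken singly. A pseudocount of 0.1 widened the differences of low genes by over 1.5 times, to 6.14 in Mmp9, 5.52 in Mmp11, 5.34 in Mmp10, 4.51 in Mmp1b, 1.52 in Mmp28, 2.87 in Adamts12, -4.04 in Mmp24, -4.59 in Adamts3, -3.87 in Adamts19, -0.37 in Adamts6 and -7.35 in Timp4, and, of the regulators, 3.09 in Adamtsl4, 5.58 in Adamtsl5, -3.69 in Papln and -4.83 in Pcsk6. Quantile normalization and median scaling moved the median difference of all genes to 0.038 and -0.062.

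Replicate numbers 1 and 2 occur in both cell types, and nothing in the labels pairs them. Deviations from the group means correlated between -0.064 and 0.064, and with 2 NSC libraries these values are not independent, so they do not tell whether the numbers pair the libraries. A fit that took the replicate number as a block gave 17 members higher and 10 lower, 4988 and 5249 of all genes, and 12 and 5 regulators. The block changed no call of a member, and among the regulators it changed that of Adam10 (-0.15, adjusted p = 0.13).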
